A study of Mus musculus with 15 samples.

Results

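The lysine tRNA fragments of mouse sperm comprise 2 of the 47 tRNA-fragment (tRF) entries in the table, LysCTT and LysTTT. They were chosen by amino acid, not by any measured value, and are named by the anticodon of the tRNA they come from. Small RNA of mature caudal epididymal sperm was sequenced from 15 C57BL/6 males, of the C57BL/6NTac substrain per the methods. The F0 males ate either the control diet (CO, n = 3) or the lard-based obesity-inducing diet (OID, n = 4) for 7 weeks, from 3 to 10 weeks of age, and were then mated with females on control diet. The F1 males were sons of CO fathers (CO, n = 4) or of OID fathers (OID, n = 4), and all sons ate control diet. The age of the sons is not given in the sources used here. Somatic cells were lysed before RNA extraction, and fragments of 30 to 45 nucleotides were cut from a gel of pooled libraries. The table holds small RNA only, so sperm and somatic marker genes could not be examined.

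Transfer RNA carries amino acids to the ribosome and reads codons with its anticodon. The isoacceptor LysCTT reads the lysine codon AAG, and LysTTT reads AAA with a wobble uridine that is known to carry a thiol modification, as do GlnTTG and GluTTC. Ribonucleases such as angiogenin cut mature tRNAs in the anticodon loop, and the resulting fragments are abundant in mature sperm. Lysine tRNA with the TTT anticodon is also known as the primer tRNA of several retroviruses and retrotransposons.

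In the RefSeq table of GRCm38 used here, which may not list every nuclear locus, LysCTT had 24 loci and LysTTT had 2, each 73 bases long, so that levels of the entries were set side by side without a correction for length. Of the LysCTT loci, 5 lie in introns of genes in GENCODE M21, among them Cdh19 (chr1:110904747-110904819), Rinl and Trim7, and the others lie outside genes. Both LysTTT loci lie on chromosome 13 outside genes, at chr13:21907940-21908012 and chr13:21971788-21971860. The mitochondrial genome holds a further lysine tRNA gene, mt-Tk (chrM:7700-7764, plus strand), with the same TTT anticodon. Its sequence is shown because a fragment of it would share the anticodon that names the LysTTT entry, with the anticodon at positions 27 to 29 in capitals.
mt-Tk: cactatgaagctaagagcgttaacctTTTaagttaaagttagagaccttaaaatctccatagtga
Whether mitochondrial reads were counted in LysTTT is not given in the sources used here. Reads that match several tRNAs were shared out by alignment score before deposit, per the methods, although the tRF values came out as whole reads, and how that step acted on the lysine entries was not tested.

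Values are reads divided by a size factor of the library, plus a small offset, as deposited, and are called levels here. They are relative to the other fragments of the same library, so fewer cells and less RNA per cell cannot be told apart. Depth ran from 17966 tRF reads (CO F0 replicate 3) to 5363471, and CO F1 replicate 2 had 35677. The median depth was 271812 reads in CO F0, 1167991 in OID F0, 680741.5 in CO F1 and 3221587 in OID F1, so it was lower in CO than in OID males of each generation. Nothing in the labels says more of the samples of a group than their number, and p-values therefore measure the spread between these samples.

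LysCTT was among the abundant tRFs of every library, ranking between 3 and 8 of 47. It held 0.986% to 5.66% of the tRF reads, with a median of 2.63%. LysTTT ranked between 7 and 17 and held 0.440% to 1.58%, with a median of 0.756%. The reads behind these shares numbered 280 to 139785 for LysCTT and 79 to 72112 for LysTTT, and the widest 95% Wilson interval spanned 0.384 and 0.227 percentage points. All of these counts were above the floor of 3 reads. The level varied 3.19-fold between the lowest and highest library for LysCTT and 3.50-fold for LysTTT. LysCTT was the higher of the pair in every library but OID F0 replicate 4.

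**Figure D1:**
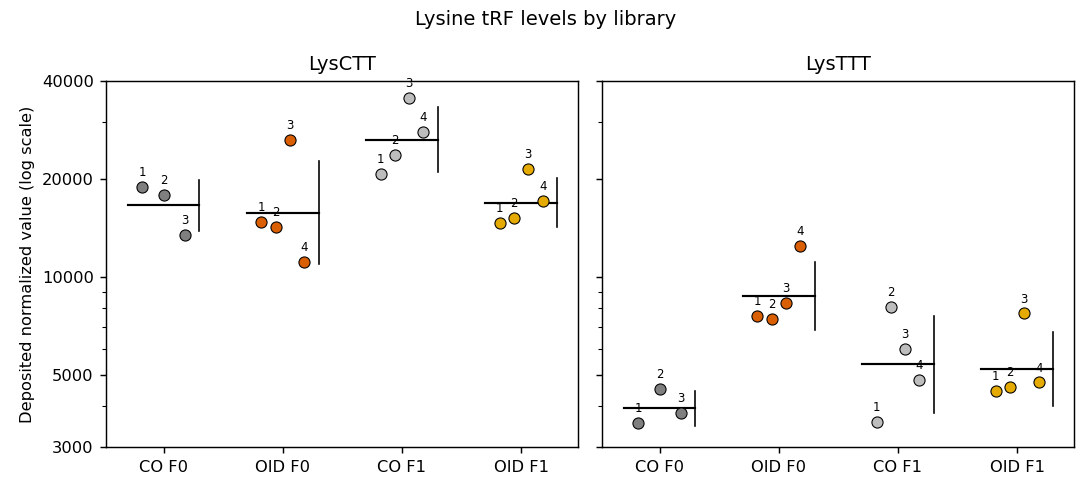
Deposited normalized values of LysCTT and LysTTT in each library (log axis, points numbered by replicate). Horizontal lines are geometric means and vertical lines are 1 SD on the log2 scale; the 4 OID F0 points of LysTTT lie above the 3 CO F0 points, and LysCTT is highest in CO F1.

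In the fathers, the LysTTT fragment was higher in every OID male than in any CO male, while LysCTT overlapped between the diets. The LysTTT levels were 3563, 4533 and 3807 in CO F0 males 1 to 3 and 7603, 7422, 8297 and 12471 in OID F0 males 1 to 4. On this scale, the gap between the highest CO and the lowest OID male was larger than the whole range of the CO group. As shares of tRF reads, LysTTT ran from 0.440% to 0.661% in CO F0 and from 0.756% to 1.58% in OID F0. These shares did not overlap either, but their gap was smaller than the CO range. The mean levels were 3968 ± 505 (SD, n = 3) and 8948 ± 2379 (SD, n = 4), a ratio of 2.26. The log2 fold change was 1.15 (SE 0.29, 95% interval 0.48 to 1.82), the fifth highest of the 47 tRFs, with an adjusted p of 0.0733 by limma, above the threshold of 0.05. In the exact permutation test the p was 0.0571, the smallest that 3 against 4 males can give. LysTTT was 1 of 5 tRFs without overlap in this direction, 10.6% of all tested. With all 4 groups in 1 limma fit, the same difference had an adjusted p of 0.0337. In the 19 other alternative settings the limma adjusted p stayed above 0.05, at 0.312 with equal tRF sums and up to 0.461.

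LysCTT, the isoacceptor for the AAG codon, gave a different picture in the same fathers. Its levels were 18958, 17842 and 13490 in CO F0 and 14738, 14239, 26341 and 11125 in OID F0. Both the highest and the lowest male were on OID. The means were 16764 ± 2889 (SD, n = 3) and 16611 ± 6681 (SD, n = 4), a ratio of 0.991. The log2 fold change was -0.07 (SE 0.35, 95% interval -0.89 to 0.74, limma adjusted p = 0.895). In F0, limma called 0% of the 47 tRFs at an adjusted p under 0.05, as did limma-voom on recovered reads, and 21.3% had an unadjusted p under 0.05, LysTTT among them.

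In the sons, LysCTT had the lower mean with an OID father, with some overlap, and the LysTTT ranges overlapped in full. The LysCTT levels were 20736, 23720, 35491 and 27827 in CO F1 and 14622, 15140, 21487 and 17129 in OID F1. Only OID F1 replicate 3 reached into the CO range, past CO F1 replicate 1. The means were 26943 ± 6397 (SD, n = 4) and 17095 ± 3121 (SD, n = 4), a ratio of 0.634. The log2 fold change was -0.64 (SE 0.27, 95% interval -1.24 to -0.05), the seventh lowest of the 47, with an unadjusted p of 0.0372 and an adjusted p of 0.272 by limma. The difference did not pass the threshold, and the exact permutation p was 0.0571. In F1, 0% of the tRFs were called by limma or by limma-voom at an adjusted p under 0.05, and 17% had an unadjusted p under 0.05.

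LysTTT in the sons had levels of 3587, 8088, 6015 and 4825 in CO F1 and 4447, 4580, 7721 and 4738 in OID F1. The OID range lay inside the CO range. The means were 5629 ± 1916 and 5371 ± 1571 (SD, n = 4 each), with a log2 fold change of -0.04 (SE 0.32, 95% interval -0.75 to 0.66, limma adjusted p = 0.913). The sign of this small difference turned with the scaling, to 0.03 when libraries were rescaled without GlyGCC and GluCTC.

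The diet difference was set against generation by the interaction term over all 4 groups. For LysTTT, the F1 difference minus the F0 difference was -1.19 (SE 0.48, 95% interval -2.20 to -0.18), with an unadjusted p of 0.0230 and an adjusted p of 0.657 by limma. For LysCTT it was -0.57 (SE 0.47, limma adjusted p = 0.961). Neither passed the threshold, and an unadjusted p under 0.05 was found for 4.26% of the tRFs. A difference in diet response between fathers and sons was therefore not shown for either lysine tRF after adjustment.

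The balance of the pair, the level of LysTTT divided by that of LysCTT in the same library, does not depend on how libraries are scaled. It was 0.188, 0.254 and 0.282 in CO F0 and 0.516, 0.521, 0.315 and 1.12 in OID F0. All 4 OID fathers lay above the 3 CO fathers, although replicate 3 did so by little. LysTTT made up 52.9% of the lysine reads in OID F0 replicate 4 (95% Wilson interval 51.9% to 53.8%) and 22.0% in CO F0 replicate 3 (18.03% to 26.6%), the library with the fewest lysine reads. Geometric means were 0.238 and 0.555, and the log2 balance averaged -2.07 ± 0.30 for the CO fathers and -0.85 ± 0.76 for the OID fathers (SD, n = 3 and 4). The log2 difference was 1.22, a 2.33-fold higher balance. The exact permutation p was 0.0571, the smallest this design allows, and 0.286 after adjustment over 15 comparisons.

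**Figure D2:**
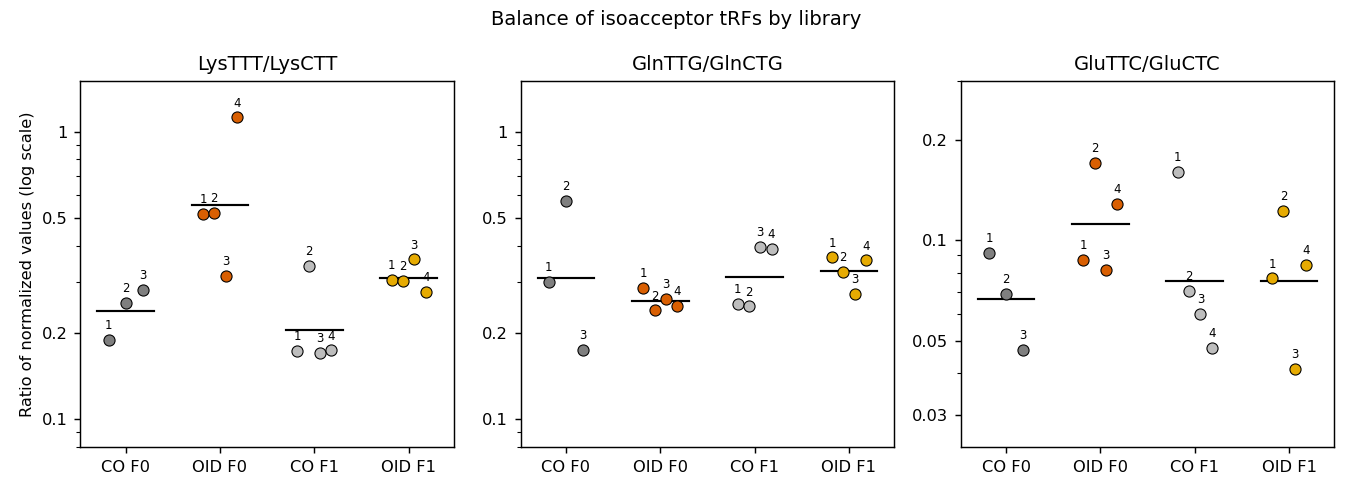
Ratio of the isoacceptor starting with T to the one starting with C for lysine, glutamine and glutamate in each library (log axes, points numbered by replicate, lines are geometric means; the glutamate axis covers lower ratios). The lysine ratio is above that of every CO father in all 4 OID fathers, and CO F1 replicate 2 stands apart from the other CO sons.

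In sons the balance was 0.173, 0.341, 0.169 and 0.173 in CO F1 and 0.304, 0.303, 0.359 and 0.277 in OID F1. Of the CO sons, 3 lay close together below all OID sons, and replicate 2 lay within the OID range. That library had 431 LysTTT and 1264 LysCTT reads, and LysTTT made up 25.4% of them (95% Wilson interval 23.4% to 27.6%), an interval that lies above the shares in the other CO sons. Geometric means were 0.204 and 0.309, and the mean log2 balance was -2.29 ± 0.49 and -1.69 ± 0.16 (SD, n = 4 each). The log2 difference was 0.60, a 1.52-fold higher balance in OID sons (exact permutation p = 0.114, adjusted 0.429). CO F1 replicate 2 was the only F1 library under 100000 tRF reads and the only CO son within the OID range. Leaving it out therefore separated the groups by construction. The difference was then 0.85 and the exact permutation p was 0.0571, the smallest that 3 against 4 males can give. Over all single males left out, the difference ran from 0.51 to 0.85 (exact permutation p = 0.0571 to 0.229).

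In the F0 means the higher balance of OID males lay in LysTTT and in the F1 means in LysCTT, as the plot of both shares shows, but the interaction term of neither tRF passed after adjustment. As shares of tRF reads, LysTTT held 0.582% ± 0.124 in CO F0 and 1.196% ± 0.351 in OID F0, against 0.911% ± 0.287 in CO F1 and 0.781% ± 0.223 in OID F1 (SD, n = 3, 4, 4 and 4). LysCTT held 2.54% ± 0.979, 2.51% ± 1.799, 4.43% ± 1.36 and 2.49% ± 0.473 in the same order. The diet difference of the log2 balance was 0.62 smaller in sons than in fathers (-0.62, exact permutation p = 0.425), so the balance was not shown to respond differently in the generations. With single males left out, this value ran from -0.89 to -0.28. It was -0.28 without OID F0 replicate 4 and -0.38 without CO F1 replicate 2. With the replicate number as a block it was -0.31, and with medians in place of means -0.22. With the depth of the library as a covariate, the log2 difference in balance was 1.64 in F0 and 1.06 in F1. In limma with that covariate, the log2 fold changes were 1.21 for LysTTT and -0.42 for LysCTT in F0. They were 0.40 for LysTTT and -0.66 for LysCTT in F1, so the split between the tRFs was less clear in this setting.

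**Figure D3:**
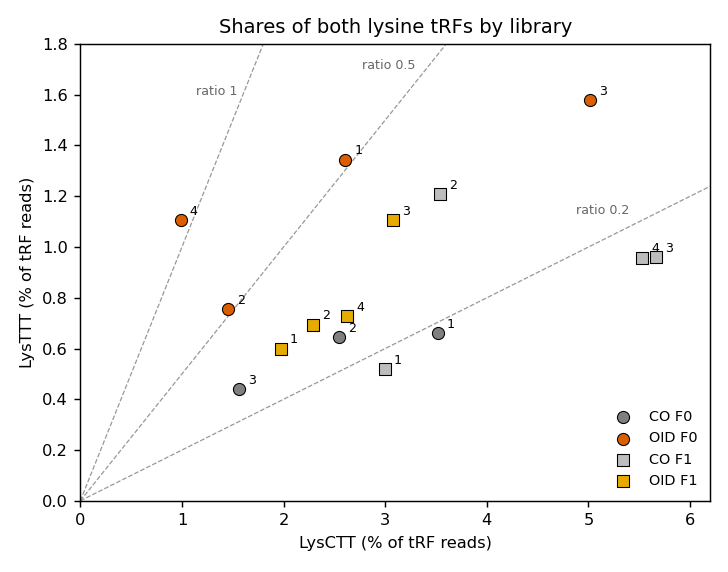
LysTTT against LysCTT, both in percent of all tRF reads in a library (circles are F0 and squares F1, numbered by replicate; dashed lines mark equal ratios). OID F0 replicates 1, 2 and 4 lie above the line of ratio 0.5, and 3 of the 4 CO F1 libraries lie below the line of ratio 0.2.

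The lysine tRFs together held 3.12% ± 1.09 of the summed tRF value in CO F0 (n = 3), 3.71% ± 2.10 in OID F0, 5.34% ± 1.49 in CO F1 and 3.27% ± 0.686 in OID F1 (SD, n = 4 each). The OID F1 mean minus the CO F1 mean was -2.07 percentage points, with overlap between CO sons at 3.51% to 6.62% and OID sons at 2.57% to 4.18%. In OID F0 the share ran from 2.09% to 6.59%. OID F0 replicate 3 had the highest lysine share of its group and replicate 4 the lowest.

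Ordered by mean log2 level, LysCTT ran from OID F0 through CO F0 and OID F1 to CO F1. The first steps were 0.07 and 0.03 on the log2 scale (exact permutation p = 0.857 and 0.914), and the step from OID F1 to CO F1 was 0.64 (exact permutation p = 0.0571). LysTTT ran from CO F0 through OID F1 and CO F1 to OID F0. The last step, from CO F1 to OID F0, was 0.70 (exact permutation p = 0.0857), and no step between neighbours in either order passed after adjustment over 6 steps (lowest adjusted p = 0.229).

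Between generations, the comparisons use the same libraries as the diet comparisons. LysCTT was higher in every CO son than in any CO father, with a ratio of means of 1.61 and a log2 difference of 0.67 (SE 0.39, limma adjusted p = 0.840), and it was the 1 tRF without overlap in this direction (2.13% of all tested). LysTTT differed by 0.45 on the log2 scale between the same groups, with overlap (limma adjusted p = 0.840). Between OID fathers and OID sons, LysTTT was lower in the sons, with a log2 difference of -0.74 (SE 0.35, unadjusted p = 0.0451, limma adjusted p = 0.265), where an unadjusted p under 0.05 was found for 17% of the tRFs. LysCTT differed by 0.10 (limma adjusted p = 0.850). The balance fell short of a shown difference in both, with a log2 difference of -0.22 between CO groups (exact permutation p = 0.571) and -0.84 between OID groups (exact permutation p = 0.0571, adjusted 0.286). Without OID F0 replicate 4 the difference between OID groups was -0.51 (exact permutation p = 0.114).

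Glutamine, which donates nitrogen in many syntheses, and glutamate also had 2 entries each, with anticodons starting with T and with C. Amino acids with more entries hold such pairs too, for example ValTAC and ValCAC, and their balances were not examined. GlnTTG and GlnCTG both had higher means in OID fathers, with log2 fold changes of 1.04 (limma adjusted p = 0.247) and 1.31 (limma adjusted p = 0.0862). Their balance differed by -0.26 (exact permutation p = 0.629), with geometric means of 0.310 in CO F0 and 0.258 in OID F0. For glutamate the geometric mean balance was 0.0667 in CO F0 and 0.112 in OID F0, a log2 difference of 0.74 (exact permutation p = 0.171), and in sons it was 0.0754 and 0.0756. The diet groups overlapped in both of these balances in each generation. Whether the lysine balance differed from the other pairs in its response to diet was not tested. Over the 6 tRFs of the 3 pairs, limma called none after adjustment in either generation. At an unadjusted p under 0.05, 2 were higher in F0 (LysTTT and GlnCTG), against 12.8% of all tRFs on that side, and in F1 GlnTTG was higher and LysCTT lower, against 6.38% and 10.6%. The median log2 fold change of the 6 was 0.97 in F0 and 0.19 in F1, beside 0.02 and 0.08 over all 47. This list, like that of the basic amino acids below, was chosen with earlier results of these data known.

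**Figure D4:**
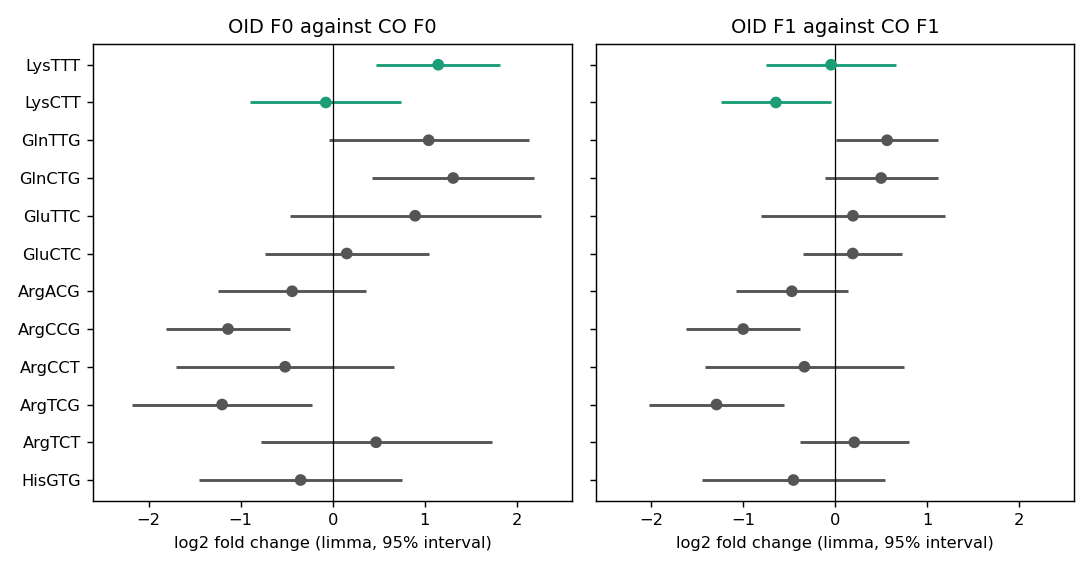
Log2 fold change of OID against CO with its 95% limma interval for the isoacceptor pairs of lysine, glutamine and glutamate and for the arginine and histidine tRFs, fathers on the left and sons on the right (lysine in green). The interval of LysTTT is above 0 in F0 and that of LysCTT below 0 in F1, while ArgCCG and ArgTCG lie below 0 in both.

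Lysine, arginine and histidine are the basic amino acids, and arginine and lysine are abundant in the histones that package DNA. Of the 8 tRFs of this list, limma called none after adjustment in either generation, and the median log2 fold change was -0.39 in F0 and -0.46 in F1, beside 0.02 and 0.08 over all 47. At an unadjusted p under 0.05, LysTTT was higher and ArgCCG and ArgTCG were lower in F0, while LysCTT, ArgCCG and ArgTCG were lower in F1. ArgCCG had log2 fold changes of -1.14 (limma adjusted p = 0.0733) and -0.999 (limma adjusted p = 0.108), and ArgTCG of -1.20 (limma adjusted p = 0.133) and -1.29 (limma adjusted p = 0.108). Over all tRFs, 12.8% were higher and 8.51% lower by that threshold in F0, and 10.6% were lower in F1.

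Across the 15 libraries, the lysine tRFs were not especially like each other. Ordered by r over all other tRFs, LysTTT ranked 26 for LysCTT and LysCTT ranked 24 for LysTTT, near the middle. The most similar tRFs named below were picked as the highest r, so they exceed a fixed partner by selection. The log2 levels of LysCTT and LysTTT had a Pearson r of -0.0686, 0.123 after the group means were taken out, and 0.348 when levels were taken as shares of the tRF sum, so its sign depended on the scaling. The tRFs most like LysCTT were LeuTAG (r = 0.761), LeuAAG (r = 0.720) and ArgACG (r = 0.542), with r of 0.746, 0.652 and 0.499 within groups. The tRFs most like LysTTT were GlnCTG (r = 0.742), ValAAC (r = 0.720) and MetCAT (r = 0.673), and within groups these were 0.451, 0.364 and 0.599. For GlnCTG and ValAAC, r was thus clearly lower once the group means were taken out, and for MetCAT it was little lower. All 3 had higher means in OID fathers (log2 fold change of MetCAT 0.42), and the part of diet in these correlations was not tested. The libraries share diet groups and differ in depth and scaling, and these values describe them without a test.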

How the data were processed

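Sperm small RNA of 15 mice was grouped by the diet and generation in the labels. The authors trimmed reads, aligned them to mm10 and assigned them to tRNAs, and their processing notes name Bowtie2 2.3.4.1 and DESeq2. What they deposited is a signal normalized by library, called TPM in the methods, although 1 library summed to over 1000000. After 0.5 was subtracted, all 705 tRF values were whole multiples (within 0.001 reads) of what 1 read is worth in that library. The 4 mature tRNA and 164 miRNA entries were not used.

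The 47 tRFs were compared with limma 3.58.1 in R 4.3.3 (lmFit, eBayes without trend) on log2 of the value + 1. Each fit held the 2 groups at issue, and p-values were adjusted by Benjamini-Hochberg over all tRFs, with a threshold of 0.05. This scale understates changes of low tRFs. The interaction was fitted over all 4 groups. Exact permutation tests (two-sided, over all splits) served for balances and single levels, with adjustment over 15 balance comparisons. In simulated tables where 10 of 47 tRFs had a log2 change of 2, limma recovered 87.7% of them for F0, 91.3% for F1 and 65.7% for the interaction. Smaller changes, such as the lysine differences reported here, were not simulated, so these rates do not apply to them. Wilson intervals (scipy 1.17.1) cover counting error alone, because no molecular identifiers are named in the sources and reads may be copies of 1 molecule. In 21 same-group pairs the reads differed beyond sampling noise (lowest chi-square per degree of freedom 32.2), so none was counted as 1 sample.

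The lysine tRFs were set by amino acid. The isoacceptor pairs and the basic amino acid list were chosen with earlier results of these data known, so their counts and medians are descriptions only. The named tRFs are these lists and, for each lysine tRF, the 3 with the highest Pearson r over the 15 libraries. Alternatives were pseudocounts of 0.1 and 10, a minimum mean of 100, other scalings, an intensity trend, depth as a covariate, limma-voom on recovered reads, libraries with at least 100000 tRF reads, all 4 groups in 1 fit, a replicate block and leaving out each male. Rescaling to equal tRF sums, the block with depth, the depth covariate for the balance and the leave-one-out values of the other pairs were chosen after seeing the data. Loci are from RefSeq on GRCm38, set against GENCODE M21. Nuclear lysine tRNA sequences were not used here.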

Additional observations from a re-analysis of the deposited data

Results flagged for a closer look

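In 2 of 12 checks, 1 library stood apart by Dixon's criterion, which chance alone meets in about 1 of 20 independent groups. The checks covered 4 measures (both levels, their balance and the lysine share) in the 3 groups of 4 males, so they share males and values and are not independent. LysTTT in OID F1 replicate 3 was 7721, and the other values of its group were 4447, 4580 and 4738. On the log2 scale, its gap to the next male took up 0.885 of the range of the group. The same male had the highest LysCTT level of its group, 21487, so its balance of 0.359 did not stand apart. The LysTTT to LysCTT balance of CO F1 replicate 2 was 0.341, while the other CO sons had 0.173, 0.169 and 0.173. Its gap to the next male took up 0.967 of the range on the log2 scale. This library had 35677 tRF reads, the fewest in F1, and the part of depth in its balance was not tested.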

How the results depend on the processing

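With all 4 groups in 1 limma fit, 6 tRFs were called in F0 instead of 0, LysTTT among them (1.15, adjusted p = 0.0337). In every other setting LysTTT in F0 kept its direction and no lysine tRF was called, with log2 fold changes of 0.74 to 1.21 (limma adjusted p up to 0.461), and of 0.98 to 1.25 when single males were left out (limma adjusted p = 0.0647 to 0.239). LysCTT in F1 ranged from -0.80 to -0.57, and from -0.76 to -0.50 with males left out. Rescaling shifted the median log2 fold change of all tRFs, in F0 by -0.35 without GlyGCC and GluCTC and by -0.13 at equal tRF sums, and in F1 by -0.15 at equal sums. Relative to that median, LysTTT in F0 was at 1.13 and LysCTT in F1 at -0.72, which a change of scaling leaves as they are by construction.

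Reversals concerned small differences. LysCTT in F0 was -0.32 to 0.092 with males left out. The replicate block also gave 0.092, the same estimate as without OID F0 replicate 4, because CO F0 has no replicate 4. LysCTT in F0 was -0.42 with a depth covariate, -0.42 rescaled without GlyGCC and GluCTC and -0.56 with the replicate block and depth. LysTTT in F1 was 0.034 rescaled without GlyGCC and GluCTC, 0.40 with a depth covariate, 0.15 in libraries with at least 100000 reads, 0.39 with the replicate block and depth, and -0.24 to 0.15 with males left out. LysCTT between OID generations was -0.026 with depth, -0.020 with the replicate block and depth, and -0.066 to 0.35 with males left out. The log2 balance between CO generations was 0.044 with depth, and -0.47 to -0.10 with males left out. In F1 the balance difference was 1.06 with depth. With males left out, the OID minus CO lysine share in F0 was -0.371 to 1.13 percentage points, below 0 without OID F0 replicate 3, and the log2 balance difference was -0.68 to 0.18 for glutamine in F0, -0.048 to 0.18 in F1 and -0.23 to 0.37 for glutamate in F1. For these the cause was not tested.

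Counts of called tRFs moved too. In F1 there were 3 at equal tRF sums and 5 with the replicate block and depth. Leaving out 1 male gave 0 to 2 in F0 (1 without CO F0 replicate 1, 2 without OID F0 replicate 3), 0 to 1 in F1 (1 without CO F1 replicate 1) and 0 to 2 between OID generations (2 without OID F0 replicate 3). Between CO generations there was 1 with the replicate block and 2 with the block and depth. Same-numbered males deviated from their group means with correlations of -0.145 to 0.233 in F0 and -0.267 to 0.301 in F1. Of the males with a same-numbered counterpart, 2 of 6 in F0 and 4 of 8 in F1 correlated best with it, so the numbers were not taken as pairs. With the replicate block LysTTT in F0 was 0.98 (limma adjusted p = 0.229). With 3 or 4 males a group, the exact permutation tests could not go below 0.0571 in F0 or 0.0286 in F1.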
